A study of Homo sapiens with 12 samples.

Results

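The interferon regulatory factor (IRF) genes IRF1, IRF2, IRF3, IRF4, IRF5, IRF7, IRF8 and IRF9 and the gene of the signal transducer STAT2 were followed in human U937 cells given a PML-RARA fusion protein or its control. These 9 genes were chosen by name, with earlier results of these data known. A gene was measured by the probe sets that the platform annotation ties to that symbol alone. A value was found for 8 of the 9, out of 19775 genes with such a probe set; STAT2 was not analysed here. The probe set brightest on average over the 12 arrays, in log2 signal, stood for each gene, and any other probe set served as a check. All 8 genes with a value lay above the filter on low signal, as did 13959 genes in total.

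U937 is a monocytic cell line established from a histiocytic lymphoma. The cells were electroporated with 1 of 3 pEGFP plasmids and sorted for GFP, and RNA was taken 9 h or 6 h later. PR2VR cells received GFP joined to the protease-resistant PML-RARA that the series title names, PRWT cells GFP joined to wild-type PML-RARA, and GFP cells, the control, GFP alone. The characteristics of the PR2VR samples call its cDNA wild type as well, so only its name and the series title set it apart from PRWT here. Each construct was measured at each hour on 2 Affymetrix arrays, numbered 1 and 2, which gives 4 arrays per construct. The titles count hours after infection for both fusions and after transfection for GFP, so any difference in procedure that this wording stands for cannot be told apart from the fusion. Nothing in the labels says that numbers 1 and 2 came from separate electroporations, so p-values measure the spread among these arrays alone, and that spread may be technical.

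Interferons bind receptors whose JAK kinases phosphorylate STAT proteins. STAT2 then joins IRF9 and another STAT in the complex ISGF3, which binds interferon-stimulated response elements (ISRE), while STAT dimers bind gamma-activated sites (GAS). IRF1 is induced through such a site and activates antigen presentation and antiviral genes, and IRF2 competes with it for the same DNA. IRF3, IRF5 and IRF7 are activated by phosphorylation after microbial sensing and turn on interferon genes. IRF4 and IRF8 are made mainly in blood cells, pair with the factor PU.1, and IRF8 directs monocyte development. PML-RARA, the fusion of acute promyelocytic leukaemia, binds retinoid response elements and represses many of its target genes.

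The deposited values are MAS5 signals, a linear measure of probe set brightness, with the same trimmed mean on every array. RARA, part of which the fusions carry, read 9281.2 to 41097.2 on PR2VR arrays and 11970.8 to 58985.0 on PRWT arrays, against 48.2 to 309.2 on GFP arrays. The lowest RARA signal of each fusion was on its array of 6 h number 2, and the other fusion arrays read 29626.4 to 58985.0. Whether this bears on the IRF genes was not tested. The 3 arrays of 9 h number 2, 1 per construct, stood apart, with median signals of 387.8 to 436.0 against 238.6 to 292.1 on the other 9, and with GAPDH 3'/5' ratios of 2.22 to 2.75 against 3.82 to 12.9. Actin 3'/5' ratios were 7.79 to 10.7 on the arrays of 9 h number 2 and 12.5 to 58.2 on the others. They were highest on PR2VR 9 h number 1 (58.2) and PR2VR 6 h number 2 (56.9), so RNA quality limits the comparisons with PR2VR. PR2VR 6 h number 1 had the lowest mean correlation with the other arrays, 0.901 against 0.904 to 0.937 for the rest. Of 9 myelomonocytic markers, 7 had a value and 5 lay above the filter. CD14 and SPI1, the gene of PU.1, were below it, and CD33 and CD68 were not analysed here. Their summed signal was 9138.3 to 21798.6 in PR2VR, 8583.8 to 29458.9 in PRWT and 8742.2 to 28931.2 in GFP cells. The markers of T cells (6 of 6 with a value, 3 above the filter), B cells (5 of 6, 4 above) and erythroid cells (4 of 5, 2 above) also had overlapping sums in the 3 constructs. T cell sums ran from 642.7 to 2612.6 and erythroid sums from 459.5 to 1237.8. B cell sums ran from 3704.7 to 17772.9, with PAX5 alone at 2166.5 to 16215.1, and so overlapped the myelomonocytic sums. In cells pooled for RNA, fewer cells making a transcript and less of it per cell cannot be told apart.

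Windows before listed starts of IRF1, IRF9 and IRF8 are shown because they hold letters that STAT proteins or the retinoid receptor part of the fusion are known to read. Each is the 250 bases before a transcription start in the RefSeq table of GRCh38.p14, written 5′ to 3′ along the gene's strand. Capitals mark a match, on either strand, to GAS (TTCNNNGAA) or to the retinoid half-site (AGGTCA).
IRF1, chr5:132490774-132491023, minus strand: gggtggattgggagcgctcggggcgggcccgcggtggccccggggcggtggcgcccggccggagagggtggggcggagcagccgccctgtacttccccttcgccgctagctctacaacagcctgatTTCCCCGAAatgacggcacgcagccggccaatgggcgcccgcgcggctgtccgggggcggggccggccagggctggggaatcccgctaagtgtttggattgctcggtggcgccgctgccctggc
IRF9, chr14:24161015-24161264, plus strand: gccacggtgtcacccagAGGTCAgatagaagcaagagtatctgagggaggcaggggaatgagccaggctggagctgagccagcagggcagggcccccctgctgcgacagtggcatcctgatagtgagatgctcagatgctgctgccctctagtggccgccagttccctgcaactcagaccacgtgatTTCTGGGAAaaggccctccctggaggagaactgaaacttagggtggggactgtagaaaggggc
IRF8, second listed start, chr16:85902765-85903014, plus strand: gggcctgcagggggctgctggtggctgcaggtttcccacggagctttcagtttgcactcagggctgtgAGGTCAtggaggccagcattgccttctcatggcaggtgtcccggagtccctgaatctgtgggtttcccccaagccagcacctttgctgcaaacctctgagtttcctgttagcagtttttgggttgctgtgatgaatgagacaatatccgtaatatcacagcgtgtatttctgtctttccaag
The GAS match of IRF1 lies 124 to 116 bases before the start and that of IRF9 63 to 55 bases before it. AGGTCA lies 233 to 228 bases before the IRF9 start and 182 to 177 bases before the second IRF8 start. Among the 35116 windows of this length in the table, 6.57% held a GAS match and 12.1% an AGGTCA match. ISRE (GAAANNGAAA, found in 3.02% of windows) matched none of the members' windows, and the composite IRF and PU.1 element (GGAANNGAAA, 2.41%) matched only the third listed start of IRF5, 33 to 24 bases before it. AGGTCA also matched the first IRF5 start, 94 to 89 bases before it. The windows of IRF4 and STAT2, of the remaining IRF5 starts and of the first IRF8 start held none of the 4 motifs. The IRF8 windows lie inside the gene, which begins at 85899162, so the bases before that position were not searched. The IRF5 windows likewise lie inside their gene, which begins at 128937032. The table held 6 of the 9 members. The arrays did not measure binding.

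IRF1 read lower in fusion cells than in GFP cells, by about a factor of 2 on the mean log2 scale, and its difference was the largest of the 8 IRF genes, but it did not pass the test across all genes. IRF1 (chr5:132481609-132490773), the activator of antigen presentation genes, read 4581.0 and 2290.1 in PR2VR and 4710.1 and 2558.8 in PRWT cells at 9 h, against 8734.9 and 3698.4 in GFP cells. At 6 h it read 2176.7 and 7876.1 in PR2VR and 4534.3 and 6827.0 in PRWT cells, against 14017.1 and 11605.4 in GFP cells. At 6 h the 4 fusion arrays all lay below both GFP arrays, which was true of 4.27% of all genes tested. At 9 h the groups overlapped, because GFP number 2 lay below number 1 of both fusions. Over both hours the signal averaged 4231.0 ± 2670.6 in PR2VR, 4657.6 ± 1744.4 in PRWT and 9514.0 ± 4437.7 in GFP cells (SD, n = 4 each).

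**Figure D1:**
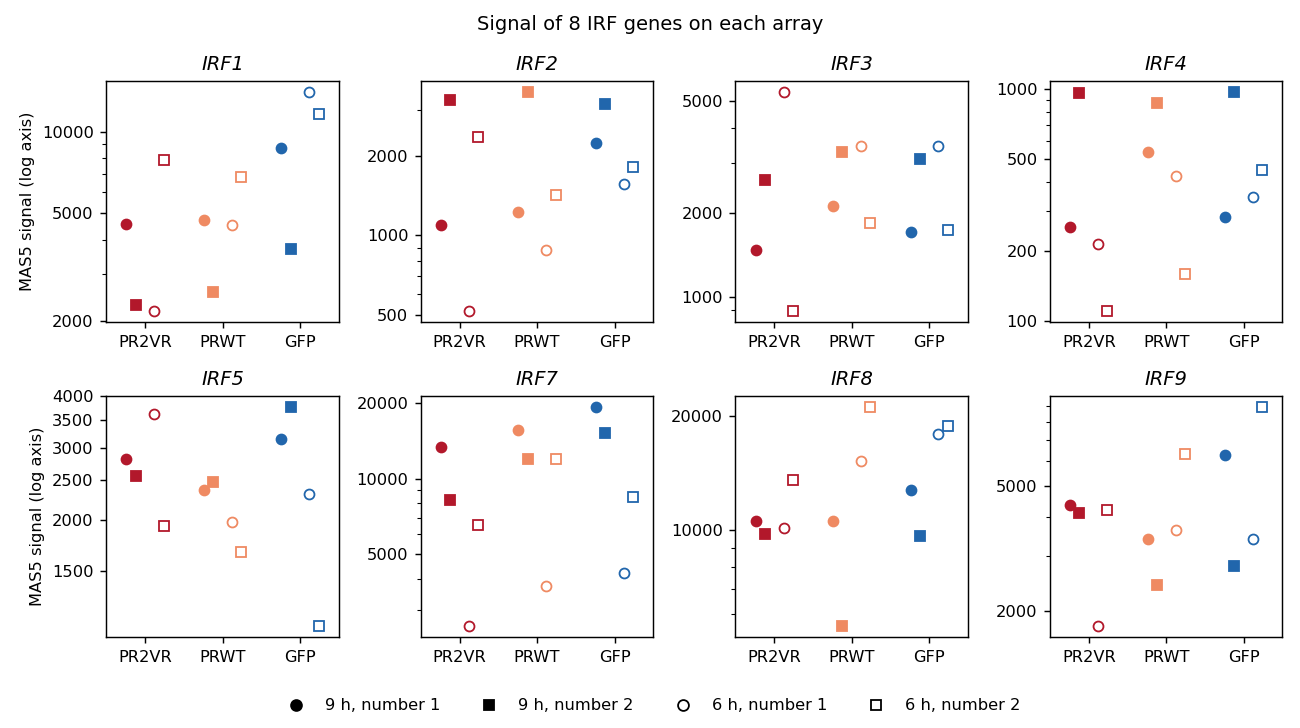
MAS5 signal (log axis) of the 8 IRF genes on the 12 arrays, for PR2VR, PRWT and GFP cells; filled symbols are 9 h, open symbols 6 h, circles number 1 and squares number 2. IRF1 at 6 h and IRF5 at 9 h are the places where 4 fusion arrays lie below both GFP arrays.

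The mean of PR2VR and PRWT minus GFP, averaged over both hours, was -1.07 ± 0.38 on the log2 scale for IRF1 (SE, 8 arrays against 4; 0.475-fold, 95% interval -1.89 to -0.26), with adjusted p = 1.00 in limma. Arrays that share an hour and a number deviated together, so a set of 3 such arrays was also fitted as a block. With the block the SE was 0.25 and adjusted p was 0.152 in limma. The difference was -1.20 ± 0.44 for PR2VR minus GFP and -0.94 ± 0.44 for PRWT minus GFP, with blocked adjusted p of 0.148 and 0.56 in limma. It was below 0 in 4 of 4 sets, at -0.90 and -0.60 for numbers 1 and 2 of 9 h and -2.13 and -0.66 for numbers 1 and 2 of 6 h. Being lower in all 4 sets was true of 10.7% of all genes tested.

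The value of IRF1 rested partly on single GFP and PR2VR arrays. Without the block it was -0.767 without GFP 9 h number 1 and -1.38 without GFP 9 h number 2. With the block it was -0.704 without GFP 6 h number 1 and -1.442 without GFP 6 h number 2. Without GFP 9 h number 1 or GFP 6 h number 1, no IRF gene had an unadjusted p under 0.05 in the fit without the block. Without PR2VR 6 h number 1 the difference was -0.84 without the block and -0.86 ± 0.16 with it, and blocked adjusted p was 0.0269 in limma. Without number 2 of the same pair it was -1.28 ± 0.16 with the block, and blocked adjusted p was 0.0047. Without the 3 arrays of 9 h number 2 it was -1.15 ± 0.45. At 9 h the difference was -0.75 ± 0.54 and at 6 h -1.40 ± 0.54, and the change between the hours was 0.65 ± 0.76 (adjusted p = 1.00 in limma), so no difference between hours was found at this spread. The 9 h difference was -0.137 without GFP 9 h number 1 and -1.363 without GFP 9 h number 2, and the change between the hours was then 1.258 and 0.032.

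The other probe set of IRF1 separated the groups at both hours. It read 2906.6 and 3199.7 in PR2VR and 2597.7 and 3569.7 in PRWT cells at 9 h, against 4871.9 and 5369.5 in GFP cells. At 6 h it read 2303.4 and 4598.7 in PR2VR and 3458.7 and 5389.8 in PRWT cells, against 7129.5 and 8568.7 in GFP cells. Of the genes tested, 0.602% lay below GFP in this way at both hours, by the probe set chosen for each, and IRF1 was not among them. How many genes did so by any of their probe sets was not counted, so this share is not that of a second probe set. Its difference was -0.89 ± 0.26, with adjusted p = 0.894, and with the block ± 0.17 and adjusted p = 0.0739 in limma. The probe sets of IRF1 had thus the same direction and differed in how far 9 h arrays overlapped.

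**Figure D2:**
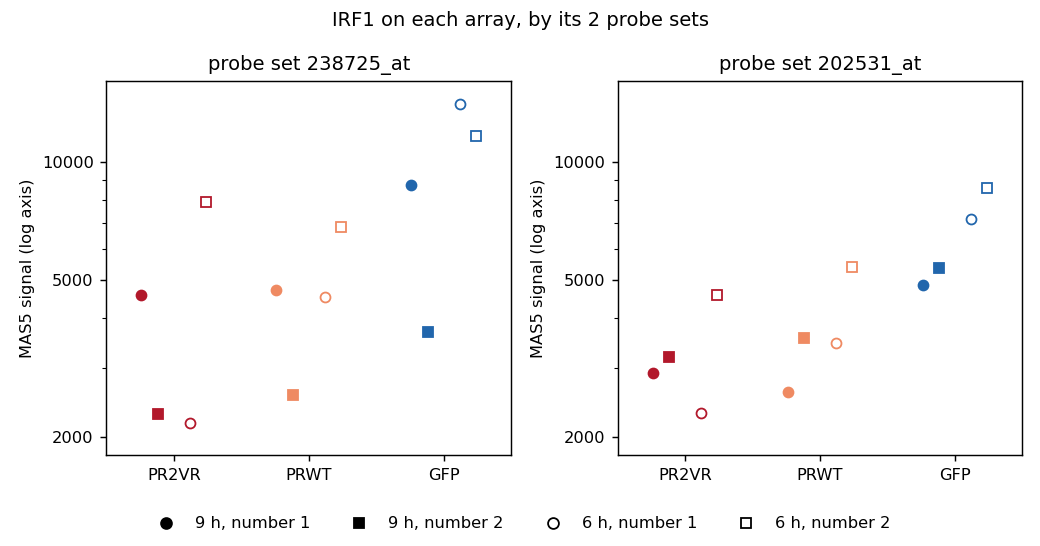
IRF1 signal (log axis) on each array by its chosen probe set (left) and its other probe set (right), for PR2VR, PRWT and GFP cells, with filled symbols for 9 h and open symbols for 6 h. On the right the fusion arrays lie below the GFP arrays of the same hour at both hours, from 2303.4 to 5389.8 against 4871.9 to 8568.7.

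None of the 8 IRF genes passed an adjusted p of 0.05 for fusion against GFP in limma, with or without the block; RARA was the 1 gene of all tested that passed without it (0.00716%), and 44 passed with it (0.315%). At an unadjusted p under 0.05, 1 IRF gene passed without the block and 1 with it, IRF1 both times, where 3.14% and 8.40% of all genes did. The difference was below 0 for 7 of the 8, against 52.4% of all genes tested, and its median was -0.34, against -0.02 for all genes tested. PR2VR and PRWT share the GFP arrays, so their differences from GFP are not independent of each other.

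IRF2 (chr4:184387729-184474550), the competitor of IRF1, read 1098.0 and 3275.6 in PR2VR and 1227.7 and 3518.7 in PRWT cells at 9 h, against 2248.3 and 3168.5 in GFP cells. It read 514.0 and 2364.7 in PR2VR and 876.8 and 1429.2 in PRWT cells at 6 h, against 1571.6 and 1823.1 in GFP cells. The fusion arrays spanned the GFP arrays at 9 h and at 6 h, and PR2VR 6 h number 1 was the lowest array of all. The difference was -0.49 ± 0.43, below 0 in 2 of 4 sets, both of them sets numbered 1. It was -0.23 without PR2VR 6 h number 1 and -0.749 without number 2.

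IRF9 (chr14:24161265-24166565), the DNA-binding subunit of ISGF3, did not differ between fusion and GFP cells beyond the spread. It read 4360.8 and 4106.3 in PR2VR and 3393.9 and 2428.5 in PRWT cells at 9 h, against 6308.4 and 2779.0 in GFP cells. Its 6 h signals were 1788.2 and 4201.8 in PR2VR and 3612.1 and 6347.9 in PRWT cells, against 3391.8 and 8951.0 in GFP cells. GFP arrays were both among the highest and among the lowest at each hour. The difference was -0.43 ± 0.35, with an interval of -1.19 to 0.34 and blocked adjusted p = 0.6 in limma. It was -0.49 ± 0.41 for PR2VR and -0.37 ± 0.41 for PRWT, and below 0 in 3 of 4 sets, the exception being 9 h number 2 at 0.18. Without GFP 6 h number 1 these 3 differences were -0.774, -0.834 for PR2VR and -0.715 for PRWT, and without GFP 6 h number 2 they were -0.083, -0.142 for PR2VR and -0.023 for PRWT.

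None of IRF3, IRF5 and IRF7, the factors activated by microbial sensing, passed the test for construct or hour in limma. IRF3 (chr19:49659572-49665857) read from 890.5 to 5385.7 in PR2VR (median 2048.0), from 1831.4 to 3454.0 in PRWT (median 2708.0) and from 1701.9 to 3458.1 in GFP cells (median 2418.6). Its lowest and highest arrays were both PR2VR at 6 h. The difference between fusion and GFP was -0.03 ± 0.43, with an interval of -0.97 to 0.90. It was -0.35 without PR2VR 6 h number 1, the higher of the pair, and 0.28 without number 2.

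IRF7 (chr11:612555-615950), the amplifier of type I interferon genes, read lower in PR2VR than in PRWT and GFP cells within each set of arrays. At 9 h it read 13307.2 and 8232.8 in PR2VR, 15513.4 and 11930.4 in PRWT and 19229.5 and 15118.7 in GFP cells. At 6 h it read 2596.3 and 6548.5 in PR2VR, 3753.2 and 11959.4 in PRWT and 4233.7 and 8440.1 in GFP cells. PR2VR was the lowest of the 3 constructs in 4 of 4 sets, and at 9 h both PR2VR arrays lay below both GFP arrays. The share of all genes with either pattern was not counted. The ranges of PR2VR and PRWT overlapped at both hours, and those of all 3 constructs at 6 h. PR2VR minus PRWT was -0.53 ± 0.42, with adjusted p = 1.00, and with the block ± 0.19 and adjusted p = 0.723 in limma. Without PRWT 6 h numbers 1 and 2 in turn it was -0.948 and -0.12 without the block. PR2VR minus GFP was -0.61 ± 0.42, with blocked adjusted p = 0.246 in limma, and -0.286 and -0.943 without PR2VR 6 h numbers 1 and 2 in turn. A gene was lower in all 4 sets in 6.93% of all genes tested for PR2VR minus PRWT and in 9.96% for PR2VR minus GFP. PRWT minus GFP was -0.08 ± 0.42 for IRF7 and changed sign, to 0.33, without PRWT 6 h number 1.

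IRF5 (chr7:128937032-128950038), which drives inflammatory cytokine genes, read 2821.7 and 2554.3 in PR2VR and 2362.4 and 2470.5 in PRWT cells at 9 h, against 3143.2 and 3769.4 in GFP cells. At 6 h it read 3626.0 and 1932.4 in PR2VR and 1983.7 and 1671.6 in PRWT cells, against 2315.5 and 1104.0 in GFP cells. At 9 h the 4 fusion arrays lay below both GFP arrays, as in 6.28% of all genes tested, and at 6 h the groups overlapped. The fusion difference was -0.43 ± 0.39 at 9 h and 0.44 ± 0.39 at 6 h, which average to 0.01 ± 0.27. The change between the hours was -0.87 ± 0.55, with adjusted p = 1.00, and with the block ± 0.38 and adjusted p = 1.00 in limma. It was -1.38 and -0.353 without GFP 6 h numbers 1 and 2 in turn. Its other probe set above the filter overlapped at both hours and gave -0.18 ± 0.54 at 9 h and 0.53 ± 0.54 at 6 h. PR2VR minus PRWT was 0.34 ± 0.32 and above 0 in 4 of 4 sets, as in 7.55% of all genes tested, and was 0.116 without PR2VR 6 h number 1.

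The blood cell factors IRF8 and IRF4 overlapped between the constructs. IRF8 (chr16:85899162-85922609), a factor of monocyte development, read 10584.0 and 9767.2 in PR2VR and 10557.5 and 5586.0 in PRWT cells at 9 h, against 12780.9 and 9656.4 in GFP cells. At 6 h it read 10122.5 and 13600.3 in PR2VR and 15272.9 and 21165.0 in PRWT cells, against 17955.5 and 18875.2 in GFP cells. At 6 h both PR2VR arrays lay below all PRWT and GFP arrays, while PRWT arrays lay on either side of the GFP arrays. How many of all genes did so was not counted. The difference between fusion and GFP was -0.33 ± 0.25, with blocked adjusted p = 0.632 in limma. It was below 0 in 4 of 4 sets, as in 10.7% of all genes tested. It was -0.39 ± 0.28 for PR2VR and -0.28 ± 0.28 for PRWT, the last being -0.509 and -0.054 without PRWT 9 h numbers 1 and 2 in turn. IRF4 (chr6:391752-411443), a factor of lymphoid cells, read from 110.0 to 961.1 in PR2VR (median 234.9), from 159.0 to 876.9 in PRWT (median 480.1) and from 281.7 to 974.9 in GFP cells (median 395.4). Its 3 highest arrays were those of 9 h number 2, and both PR2VR 6 h number 2 and PRWT 6 h number 2 fell below the filter signal of 168.9. The difference was -0.32 ± 0.44 and changed sign, to 0.08, without GFP 9 h number 2. The other 2 probe sets of IRF4 lay below the filter.

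**Figure D3:**
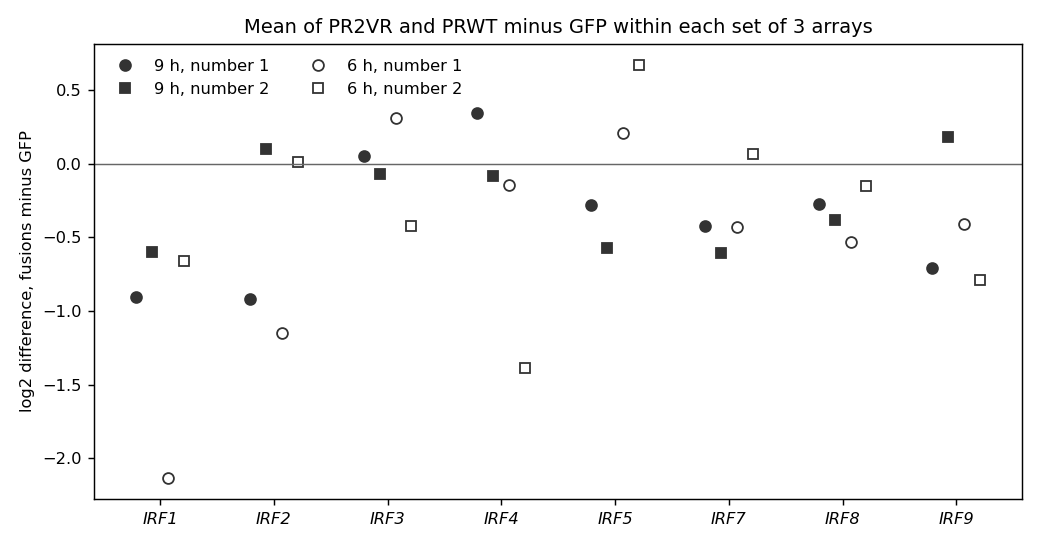
Log2 difference of the mean of PR2VR and PRWT from GFP within each of the 4 sets of 3 arrays, for the 8 IRF genes; filled symbols are 9 h, open symbols 6 h, circles number 1 and squares number 2. IRF1 and IRF8 lie below 0 in 4 of 4 sets, and IRF1 of 6 h number 1, at -2.13, is the lowest point.

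Against GFP, none of the 8 passed for PR2VR alone or for PRWT alone in limma, with or without the block. For PR2VR, 1 of all genes tested passed (0.00716%) and 41 with the block (0.294%), and for PRWT 1 passed (0.00716%) and 1 with the block (0.00716%). At an unadjusted p under 0.05, IRF1 stood out for PR2VR without the block (3.95% of all genes), IRF1 and IRF7 with it (11.1%), and for PRWT no IRF gene without the block (2.06%) and IRF1 with it (5.44%). For PR2VR minus PRWT 0 genes passed in limma, with or without the block (0.0%). At an unadjusted p under 0.05 no IRF gene stood out there without the block (1.55% of all genes) and IRF7 with it (6.86%). The difference of IRF1 between the fusions was -0.26 ± 0.44 (interval -1.20 to 0.69), and without PR2VR 6 h number 1 it was 0.20. The intervals of 7 of the 8 reached a 2-fold difference in at least 1 direction, the exception being IRF8 (-0.72 to 0.51), so they do not show that both fusions act alike.

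**Figure D4:**
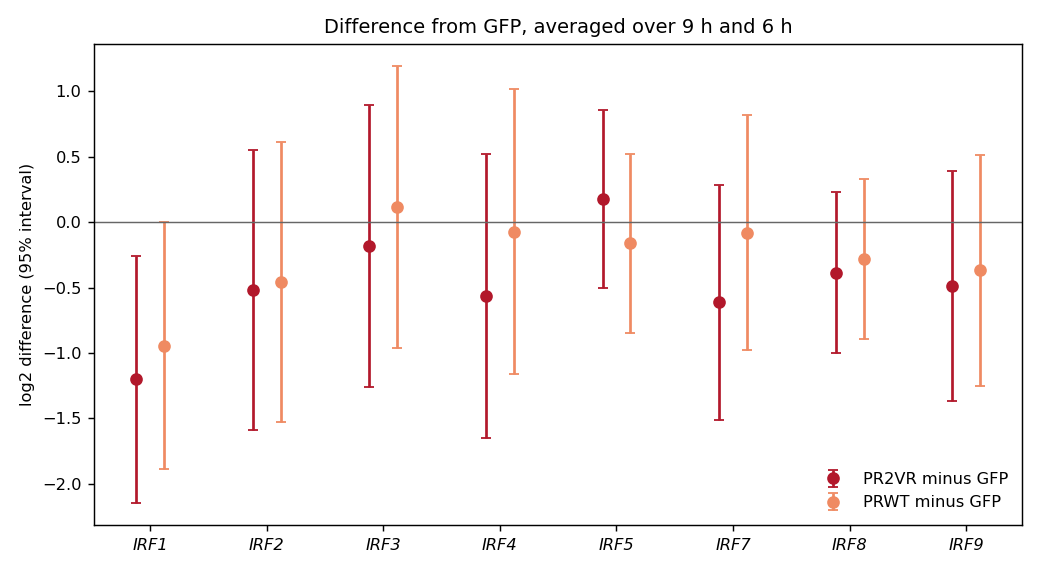
Log2 difference from GFP with its 95% interval (limma, no block) for PR2VR and PRWT, averaged over 9 h and 6 h, for the 8 IRF genes. The PR2VR interval of IRF1, from -2.15 to -0.26, is the one that lies wholly below 0, and 0 lies at the edge of the PRWT interval of IRF1.

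Between the hours, IRF7 and IRF4 read higher and IRF8 lower at 9 h than at 6 h over the 3 constructs, but none of the 8 passed the test. IRF7 differed by 1.28 ± 0.34 (2.43-fold, interval 0.55 to 2.02), with adjusted p = 0.175 and blocked adjusted p = 0.858 in limma. Both 9 h arrays of IRF7 lay above both 6 h arrays in PR2VR and in GFP cells, and in PRWT cells they overlapped narrowly, at 11930.4 for 9 h number 2 and 11959.4 for 6 h number 2. IRF8 differed by -0.72 ± 0.23 (0.608-fold), with adjusted p = 0.227 in limma, and its 9 h arrays lay below its 6 h arrays in PRWT and GFP cells. Other IRF genes separated by hour within a construct too. The 9 h arrays lay above the 6 h arrays for IRF4 in PR2VR and PRWT cells, for IRF5 in PRWT and GFP cells and for IRF2 in GFP cells. They lay below for IRF1 in GFP cells and for IRF9 in PRWT cells. The share of all genes whose hours separated within a construct was not counted. IRF4 differed by 0.99 ± 0.41, IRF2 by 0.74 ± 0.40, IRF1 by -0.73 ± 0.36 and IRF5 by 0.50 ± 0.26. Of all genes tested 11 passed (0.0788%), and 0 passed with the set as a random block (0.0%) in limma. At an unadjusted p under 0.05, 3 IRF genes stood out without the block (15.1% of all genes) and 2 with it (5.49%).

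The hours were compared on arrays whose overall level also differed. The median of all genes tested was 0.13 higher at 9 h, and -0.15 after each array was shifted to a common median. On that scale IRF7 differed by 0.997 and IRF8 by -1.001. Without the 3 arrays of 9 h number 2, IRF7 differed by 1.52 ± 0.47, IRF8 by -0.48 ± 0.30, IRF4 by 0.34 ± 0.42, IRF2 by 0.16 and IRF1 by -0.21. The difference of IRF7 was thus kept in size without that set, and those of IRF4, IRF2, IRF8 and IRF1 were smaller.

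The genes that signal to and from these factors were described by 7 lists, for the mean of PR2VR and PRWT minus GFP. The lists were chosen with earlier results of these data known, so their counts are a description and no independent support. No gene of any list passed in limma without the block. Of all genes tested, 52.4% lay below 0, the median was -0.02 and 0.315% passed with the block. Among 9 receptors and JAK kinases, 5 lay below 0, the median was -0.46, and with the block 1 fell and 0 rose. The median was -0.65 without PRWT 9 h number 1 and -0.19 without PRWT 9 h number 2. That gene was IFNAR2, a subunit of the type I interferon receptor, which read 3410.7 to 8064.9 on the 8 fusion arrays (median 5692.8), against 9788.8 to 14696.7 on the 4 GFP arrays (median 10539.8). Its arrays did not overlap, as in 0.251% of all genes tested, and its difference was -0.996 ± 0.273, with adjusted p = 0.751, and with the block ± 0.17 and adjusted p = 0.0428 in limma. Its other 2 probe sets overlapped between fusion and GFP arrays and differed by -0.46 each, so the separation held for the chosen probe set only. JAK2, a kinase of the interferon gamma receptor, differed by -0.80 ± 0.30, IFNGR2, a chain of that receptor, by -0.56 ± 0.24, and IFNLR1, of the lambda receptor, by -0.94 ± 0.43.

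Genes that act on the IRF proteins showed smaller medians. Of 5 other STAT genes, 2 lay below 0 and the median was 0.01, with STAT5B at 0.10 ± 0.28, STAT4 at 0.05 ± 0.61, STAT3 at -0.01 ± 0.24 and STAT6 at 0.01 ± 0.29. Of the 9 adaptors and kinases that activate IRF3, IRF5 and IRF7, 8 were tested, 5 lay below 0 and the median was -0.08. IKBKE, a kinase of IRF3 and IRF7, differed by -0.39 ± 0.28, the ligase TRAF6 by 0.18 ± 0.32, the kinase IRAK1 by -0.13 ± 0.24 and the adaptor MYD88 by -0.15 ± 0.29. Of 8 partners and cofactors, 7 were tested, 4 lay below 0 and the median was -0.16. The IRF2-binding protein gene IRF2BP1 differed by -1.36 ± 0.40, with blocked adjusted p = 0.209 in limma, its relative IRF2BPL by -0.37 ± 0.27, BATF, an AP-1 partner of IRF4 and IRF8, by -0.72 ± 0.25 and the coactivator gene EP300 by 0.57 ± 0.28. None of these 3 lists held a gene that passed with the block, and their shares below 0 were near the 52.4% of all genes tested. Leaving out 1 array moved the median between -0.13 and 0.15 for the STAT genes, between -0.19 and 0.08 for the adaptors and between -0.29 and -0.03 for the partners.

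Of 7 feedback inhibitors, 6 lay below 0 and the median was -0.19, and with the block 1 fell and 0 rose. Of all genes tested, 52.4% lay below 0 and 0.315% passed with the block. SOCS1, which blocks JAK kinases, read 609.4 to 2791.7 on fusion arrays, against 3764.8 to 8414.7 on GFP arrays, and differed by -1.84 ± 0.38 (adjusted p = 0.375, and 0.0192 with the block in limma). Its other 3 probe sets, at low signal, differed by -1.42, 0.76 and 0.19, so its change is uncertain. The phosphatase genes PTPN2, PTPN6 and PTPN1 differed by 0.21 ± 0.23, -0.27 ± 0.29 and -0.19 ± 0.28.

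Targets of the factors mostly read lower in fusion cells, in lists chosen with earlier results of these data known. Of all genes tested, 52.4% lay below 0. Of 14 genes bound by ISGF3, 13 lay below 0 and the median was -0.43, but 0 passed with or without the block in limma. An unadjusted p under 0.05 was found for 1 of the 14 without the block (3.14% of all genes) and for 7 with it (8.40%). XAF1, a pro-apoptotic interferon-induced gene, differed by -0.91 ± 0.34, the antiviral genes RSAD2 and OAS1 by -0.89 ± 0.50 and -0.71 ± 0.33, and ISG15, a ubiquitin-like modifier, by -0.59 ± 0.36. The median of this list ranged from -0.62 without GFP 6 h number 1 to -0.18 without GFP 6 h number 2. Of 12 targets of IRF1, 11 were tested, 10 lay below 0 and the median was -0.36, which was -0.24 without PR2VR 6 h number 1 and -0.58 without GFP 6 h number 1. With the block 1 fell and 0 rose: IDO1, which degrades tryptophan, read 217.1 to 1617.2 on fusion arrays, against 1126.4 to 5268.8 on GFP arrays, and differed by -1.60 ± 0.37 (adjusted p = 0.524, and 0.0178 with the block in limma). The guanylate-binding protein genes GBP1 and GBP2 differed by -1.12 ± 0.37 and -0.47 ± 0.31, and CASP1, the inflammasome protease gene, by -0.35 ± 0.25.

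The blocked calls of IFNAR2, SOCS1 and IDO1 depended on which arrays were kept. All 3 also passed without either PR2VR 6 h array, with blocked adjusted p of 0.00338 to 0.00947 in limma. SOCS1 and IDO1 passed without PRWT 6 h number 2 (0.0347 and 0.0426), and SOCS1 without PRWT 9 h number 2 (0.0399), and no other omission of 1 array kept any of these calls. Over the 12 omissions the blocked difference ran from -1.081 to -0.911 for IFNAR2, from -2.127 to -1.551 for SOCS1 and from -1.827 to -1.376 for IDO1. With the block and no variance trend, adjusted p was 0.16 for IFNAR2, 0.1 for SOCS1 and 0.0827 for IDO1 in limma. With the block, 1 gene in all passed without either GFP 6 h array, without GFP 9 h number 1, without PRWT 9 h number 1 or without either PR2VR 9 h array, and 2 without GFP 9 h number 2 or PRWT 9 h number 2. The number passing was 10 and 22 without PRWT 6 h numbers 1 and 2, and 249 and 360 without PR2VR 6 h numbers 1 and 2. Between 9 h and 6 h the target lists read higher at 9 h, with medians of 0.61 for ISGF3 targets and 0.76 for IRF1 targets, against 0.13 for all genes. Without PR2VR 6 h number 1 the median of the ISGF3 targets was 0.22. GBP1 rose by 2.37 ± 0.35 (adjusted p = 0.0331 in limma), and no other listed gene passed. With the random block its adjusted p was 0.348, and without 9 h number 2 no gene passed.

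**Figure D5:**
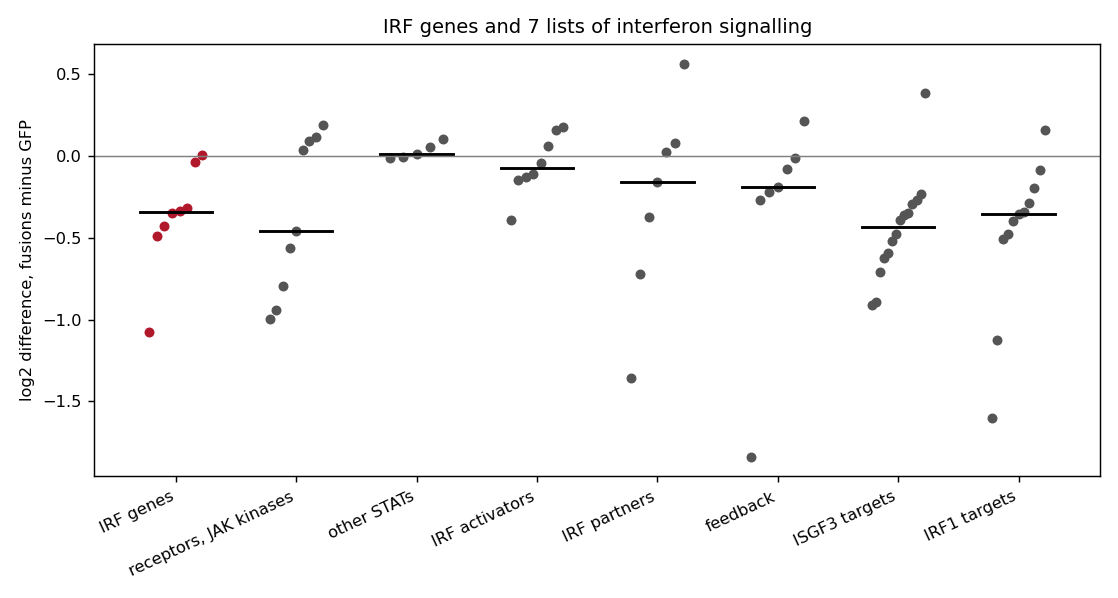
Log2 difference of the mean of PR2VR and PRWT from GFP (limma, no block) for the 8 IRF genes and the tested genes of 7 interferon signalling lists, 1 point per gene, with the median as a bar. The medians run from -0.46 for receptors and JAK kinases to 0.01 for the other STAT genes, and 13 of 14 ISGF3 targets lie below 0.

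The genes whose pattern was most like that of each IRF gene were found by Pearson's r over the 12 arrays, after the mean of each set had been subtracted. They are a description over arrays that share sets, with no test. For IRF1 they were HTATIP2, ABHD12 and GALNT18 (r = 0.981, 0.980 and 0.976), for IRF2 DDX60, SERINC3 and MON1B (0.950, 0.940 and 0.936), and for IRF3 TUBA1B, TMEM54 and SLC25A11 (0.980, 0.972 and 0.970). For IRF4 they were CARNS1, DRAM1 and MIPEP (0.962, 0.955 and 0.938), for IRF5 VMP1, PRR5L and OLIG1 (0.962, 0.957 and 0.937), and for IRF7 ITLN1, MANBA and P3H1 (0.950, 0.945 and 0.934). For IRF8 they were SNORA72, CACNA2D4 and SLC9A3-AS1 (0.972, 0.968 and 0.959), and for IRF9 PRR12, CD99L2 and ZNF232-AS1 (0.964, 0.923 and 0.911). No IRF gene was among the 3 nearest genes of another. Within sets, IRF1 and IRF2 were the most alike of the 8 (r = 0.856, and 0.031 before the set means were subtracted). IRF8 and IRF9 followed (0.772, and 0.653 before). IRF4 and IRF5 were the most opposed (-0.780), but their r was 0.212 before the set means were subtracted. These pairs were picked as the extremes of all pairs of the 8.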

How the data were processed

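RNA of U937 cells was labelled and hybridised as biotinylated cRNA, per the labels' protocols. The deposited intensity values are linear MAS5 signals, per the submitters' processing notes, with a trimmed mean of 1500.2 on every array (2% removed at each end), and were not normalized further. The MAS5 version and the scanner settings are not given in the sources used here. Of 54675 probe sets, 62 were controls, 41091 had 1 gene symbol, 1801 several and 11721 were unnamed here. STAT2 was not analysed here.

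Signals were taken as log2(signal + 62.5), the offset being their 20th percentile, so folds of dim genes are understated. Genes were tested above the 40th percentile of probe set means (log2 of 7.85). limma 3.58.1 in R 4.3.3 fitted 6 group means on 12 arrays with a variance trend, and p-values were adjusted by Benjamini and Hochberg over 13959 genes. Errors are SE unless SD is written. Samples were grouped by title. Within an hour, arrays with the same number departed together from their groups' means, with r = 0.561 to 0.626 at 9 h and 0.151 to 0.36 at 6 h, so the numbers were taken to pair arrays and a set (hour and number) was fitted as a block. For 9 h against 6 h the block was random, with a correlation of 0.409. Alternatives were other offsets, scalings, filters, probe sets and omitted arrays. The fits were also run on simulated data with known changes. Its noise was independent between arrays and held no effect of a set, so it could not check the block where arrays deviate together. The number of arrays limits the precision. From each list, up to 4 genes of smallest p without the block are named. The members and lists were chosen with earlier results of these data known.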

Additional observations from a re-analysis of the deposited data

Results flagged for a closer look

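In 4 places both arrays of one hour moved one way and both arrays of the other hour the opposite way within their sets, out of 32 pairs of an IRF gene and a difference. Of all genes tested, 11.0% did so for fusion minus GFP, 8.93% for PR2VR minus GFP, 13.7% for PRWT minus GFP and 9.43% for PR2VR minus PRWT, so the share among the IRF genes was near that of all genes. The first 3 were picked out after the values had been seen, and their difference between the hours was then tested. For IRF5, PR2VR minus GFP was -0.15 and -0.55 at 9 h and 0.63 and 0.77 at 6 h, and the difference between the hours was -1.06 ± 0.63 (adjusted p = 1.00 in limma, and 1.00 with the block). For IRF8, PR2VR minus PRWT was 0.00 and 0.80 at 9 h and -0.59 and -0.64 at 6 h, a difference of 1.01 ± 0.57 (adjusted p = 1 in limma, and 0.997 with the block). For IRF9, PR2VR minus PRWT was 0.36 and 0.74 at 9 h and -0.99 and -0.59 at 6 h, a difference of 1.34 ± 0.82 (adjusted p = 1 in limma, and 0.997 with the block, where the unadjusted p was 0.0137). The mean of both fusions minus GFP did so too for IRF5, at -0.28 and -0.57 at 9 h and 0.21 and 0.67 at 6 h, a difference of -0.87 ± 0.55 (adjusted p = 1.00 in limma). None of the 4 passed, and 0 genes passed in any of these contrasts in limma, with 101 to 138 at an unadjusted p under 0.05 without the block and 398 to 533 with it.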

How the results depend on the processing

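Over 322 comparisons of a value with its alternative that kept all arrays or left out the set of 9 h number 2, 319 kept direction and side of the threshold and 3 turned sign: IRF3 fusion minus GFP was 0.003 after median scaling, IRF5 fusion minus GFP -0.005 after quantile normalization, and IRF5 fusion minus GFP at 9 h 0.001 with the mean of all probe sets. Over 444 that left out 1 array, 423 kept both, 18 turned sign and 3 passed the threshold, all 3 of IRF1 with the block: the 2 given above and PR2VR minus GFP, which was -1.62 without PR2VR 6 h number 2 (adjusted p = 0.0029 in limma, and 0.148 on all arrays). Leaving out 1 array moved the fusion difference between -0.347 and 0.282 for IRF3, -0.715 and 0.081 for IRF4, and -0.249 and 0.264 for IRF5 (at 6 h -0.073 to 0.954). It moved PRWT minus GFP of IRF7 between -0.494 and 0.334 and PR2VR minus PRWT of IRF1 between -0.714 and 0.199. The counts of values kept were partly fixed in advance. On all arrays, the block, no filter and no variance trend change errors but not differences, so no sign could turn there. Without the block, omitting an array outside a comparison also left its difference unchanged. No IRF gene passed on all arrays, so keeping the side of the threshold meant still not passing.

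The replicate block changed no call of an IRF gene on all 12 arrays, and it moved the number of genes passing to 44 for fusion against GFP, to 41 for PR2VR against GFP and to 0 for 9 h against 6 h. With the mean of all probe sets, 0 genes passed for fusion against GFP (also at 9 h and at 6 h), for PR2VR and for PRWT against GFP, and 4 for 9 h against 6 h. The last count was 3 after quantile normalization, 2 with no variance trend and 0 without 9 h number 2, with the block or without. With the block and no variance trend, a setting chosen after seeing the data, 1 gene passed for fusion against GFP, 1 for PR2VR against GFP and 0 for 9 h against 6 h. Without 9 h number 2, 0 genes passed for fusion against GFP at 9 h.

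Leaving out 1 array without the block gave 1 to 9 genes for PR2VR against GFP, 0 to 2 for PR2VR against PRWT and 0 to 53 for 9 h against 6 h. With the block it gave 1 to 360 for fusion against GFP, 1 to 739 for PR2VR against GFP, 1 to 51 for PRWT against GFP and 0 to 303 for PR2VR against PRWT. It gave 1 to 34 at 9 h and 1 to 376 at 6 h for fusion against GFP, and 0 to 30 for the change between hours. The IRF genes passing numbered 0 to 1 for fusion against GFP, PR2VR against GFP and fusion against GFP at 6 h, the 1 being IRF1 without PR2VR 6 h number 1 or 2 in the first case, and without number 2 in the others. The cause was not tested. Alternatives include the other probe sets of IRF1 and IRF5, added after the data had been seen. Tests of change between hours for PR2VR minus GFP, PRWT minus GFP and PR2VR minus PRWT were also added then, and are not among the comparisons counted above.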
